A study of Rattus norvegicus with 5 samples.

Results

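The miR-125 and miR-99/100 families were read on 6 of the 678 rat microRNA (miRNA) probes of the array: rno-miR-125a-5p, rno-miR-125b-5p, rno-miR-99a, rno-miR-99b and rno-miR-100, which are guide strands, and rno-miR-125a-3p, the opposite strand of the miR-125a hairpin. They were chosen by name, as miRNAs of the 3 rat loci that also encode let-7a, let-7c and let-7e, and all 4 spots of each probe were used on all 5 arrays. The arrays held Hy3-labelled heart RNA of male rats of strain SD, which were 6 to 8 weeks old and weighed 200 to 300 g. Transverse aortic constriction (TAC), which narrows the aortic arch and loads the left ventricle with pressure, was done in 4 groups, taken 5, 10, 15 and 20 days after surgery, and the sham group had the same operation without the constriction. Each group was 1 array of RNA from the hearts of 5 rats, so no spread between hearts can be given and no test was made. All 4 TAC arrays were set against the same sham array, labelled as 5 days after surgery.

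A miRNA pairs with messenger RNAs mainly through its seed, bases 2 to 8, and lowers their translation and stability. The miR-125 family is the mammalian counterpart of lin-4, which times development in Caenorhabditis elegans, and in mammals it represses LIN28, a protein that blocks the maturation of let-7. In mice, miR-125b is also known for its part in the activation of cardiac fibroblasts. The miR-99/100 family is known in mammals for repressing the growth kinase mTOR and the receptor IGF1R. In each locus a miR-99/100 hairpin, a let-7 hairpin and a miR-125 hairpin follow each other on the same strand and can be transcribed together, while their mature forms are made by separate cuts.

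The mature sequences are shown because the seeds sort the probes into families, and because near-identical members set how far the probes can be told apart. RefSeq (build GRCr8) held 5 of the 6, with miR-99a named only, and it held all 3 let-7 partners. Capitals mark the seed, and each line runs 5′ to 3′.
rno-miR-125a-5p: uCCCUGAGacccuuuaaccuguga
rno-miR-125b-5p: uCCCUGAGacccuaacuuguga
rno-miR-125a-3p: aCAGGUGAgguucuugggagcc
rno-miR-99b: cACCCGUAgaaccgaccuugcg
rno-miR-100: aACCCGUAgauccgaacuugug
rno-let-7a: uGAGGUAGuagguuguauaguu
rno-let-7c: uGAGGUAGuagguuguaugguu
rno-let-7e: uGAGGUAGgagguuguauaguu

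MiR-125a-5p and miR-125b-5p had the same seed and the same first 13 bases, and differed by an edit distance of 3 over lengths of 24 and 22 bases. Only rno-miR-351-5p had that seed besides them among 693 rat mature miRNAs in the RefSeq table. MiR-99b and miR-100 shared a seed and differed by C1A, A11U, C16A and C21U, counted from the 5′ end with the miR-99b base first. MiR-125a-3p had a seed that no other mature sequence of the table carried. Among the let-7 partners, let-7a differed from let-7c by A19G and from let-7e by U9G, with the let-7a base first, and whether the probes separate such close sequences was not tested here.

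The 3 loci differed in size. On chromosome 1, miR-99b (chr1:67350070-67350091), let-7e (chr1:67350243-67350264) and miR-125a (miR-125a-5p at chr1:67350689-67350712 and miR-125a-3p at chr1:67350727-67350748) lay on the plus strand within 696 bases, inside the span of the protein-coding gene Spaca6. On chromosome 11, the hairpins of miR-99a, let-7c and miR-125b covered 45268 bases of the plus strand (chr11:29687392-29732659), inside the long non-coding RNA LOC103693508. On chromosome 8, those of miR-100, let-7a and miR-125b covered 51828 bases of the plus strand (chr8:50798295-50850122), inside the spans of Mir100hgl and the long non-coding RNA Lnc215. The let-7 hairpin lay close to the miR-99/100 hairpin in both larger loci, 639 and 6828 bases away, and miR-125b lay 44366 and 44737 bases beyond it. Mature miR-125b-5p comes from both larger loci, and let-7a and let-7c each have a further gene elsewhere, so these probes cannot assign signal to a locus.

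The number of rat miRNAs over the detection floor was 236 on sham and 162, 213, 207 and 257 on the arrays of TAC days 5, 10, 15 and 20. The floor, the median plus 3 scaled median absolute deviations of empty and negative control spots, lay between 28.1 and 72.1 units of background-subtracted signal and was highest on TAC day 5. Heart muscle miRNAs (miR-1, miR-133a, miR-133b, miR-208 and miR-499) were all above the floor on every array, with a summed signal between 104982.5 and 150659 units. The sum hides opposite ratios: on TAC day 5, 2 of these 5 were at least 2-fold higher than sham and 1, miR-499, was lower. Of 152 miRNAs measured on both arrays, 41.4% were at least 2-fold higher and 26.3% at least 2-fold lower. The log2 ratio of miR-499 was -2.48 ± 1.12 on day 5 and -1.96 ± 0.77 on day 10, with overlapping spots. MiR-208 had -1.11 ± 0.30 on day 10, and 0 of the 5 were 2-fold higher there, against 13.7% of 197 miRNAs. In miR-208, 1 spot on sham and 2 on TAC day 15 reached the scanner ceiling. Of 4 miRNAs of other organs, miR-122 (liver) and miR-216a (pancreas) were below the floor on every array. MiR-124 (neurons) was above it on all 5, with log2 ratios of 1.11 ± 0.53 on TAC day 5 and 1.29 ± 0.33 on day 10. MiR-375 (pancreatic islets) was above it on the TAC arrays only, at least 3.74-fold higher than sham on day 5 and at least 3.24-fold on day 10. These 4 summed to between 103.2 and 829.2 units, and their part in the ratios below was not tested. Spike-in RNAs, set against the miRNAs of the same array, differed from sham by -2.10, -1.78, -0.57 and -0.41 on the log2 scale on the arrays of TAC days 5, 10, 15 and 20, so that scaling to them raises every TAC ratio.

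Signals below are background-subtracted units before any scaling between arrays, and a log2 ratio is TAC over sham after background correction and quantile scaling. The SE beside a ratio covers the 4 spots per array and nothing else. A miRNA was called where the ratio was 2-fold or more between arrays on which it was above the floor. Levels were not compared between probes. In RNA from whole hearts, fewer cells of a type and less miRNA per cell cannot be told apart.

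The miR-125 guides read lower than sham on every TAC array, and miR-125b-5p had the lowest ratio of any miRNA measured on days 10 and 15. On the sham array the 4 spots of miR-125b-5p read 10469, 9238, 27439 and 27894 units. On TAC day 5 they read 1082, -37, 1808 and 2006 units, and on day 10 they read 24, 980, 5332 and 3726 units. Every spot of these 2 TAC arrays lay below the lowest sham spot, although 1 spot on each lay below the floor. The spots read 519, 2249, 11948 and 18639 units on day 15 and 4739, 6213, 19929 and 21402 units on day 20. Both later arrays overlapped sham. The log2 ratio of miR-125b-5p was -3.41 ± 1.02 (SE over spots) on day 5, a 10.6-fold lower level, and -3.02 ± 1.13 on day 10, or 8.10-fold lower. It was -1.45 ± 1.07 on day 15, 2.74-fold lower, and -0.27 ± 0.56 on day 20, which was under the 2-fold line. Counted from the lowest, the miRNA ranked 3 of 152, 1 of 197, 1 of 201 and 70 of 231 from day 5 to day 20. Between TAC days 5 and 20 the level differed by 3.14 ± 1.06 on the log2 scale, and the spots of those arrays did not overlap.

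MiR-125a-5p, with the same seed as miR-125b-5p, read 3536, 4119, 5984 and 6221 units on sham. Its spots lay at 649, 537, 570 and 619 units on TAC day 5 and at 684, 507, 1389 and 1560 units on day 10. These arrays lay wholly below sham. On day 15 the spots read 333, 378, 5154 and 5466 units, and on day 20 they read 842, 948, 4187 and 4541 units. On both later arrays the spots fell into a low and a high pair, and the high pairs reached into the sham range. The log2 ratio of miR-125a-5p was -1.89 ± 0.22 on day 5 (3.70-fold lower) and -1.93 ± 0.35 on day 10 (3.80-fold lower). It was -1.33 ± 0.97 on day 15 (2.51-fold lower), while -0.99 ± 0.69 on day 20 fell just short of the 2-fold line. It ranked 16 of 152, 7 of 197, 3 of 201 and 2 of 231 from the lowest. From TAC day 5 to day 20 it differed by 0.89 ± 0.66, with overlapping spots. The difference in ratio between miR-125b-5p and miR-125a-5p was -1.52 ± 1.04 on day 5 and -1.09 ± 1.18 on day 10. A larger deficit of miR-125b-5p was thus not clearly resolved from the spot error on either array.

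MiR-125a-3p, the opposite strand of the miR-125a hairpin, was near the background throughout. Its mean signal was 25.8 units on sham and -26.5, 3.5, -3 and 36.2 units on TAC days 5, 10, 15 and 20. Only the day 20 mean was above that array's floor of 28.1 units, and no ratio could be given.

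**Figure D1:**
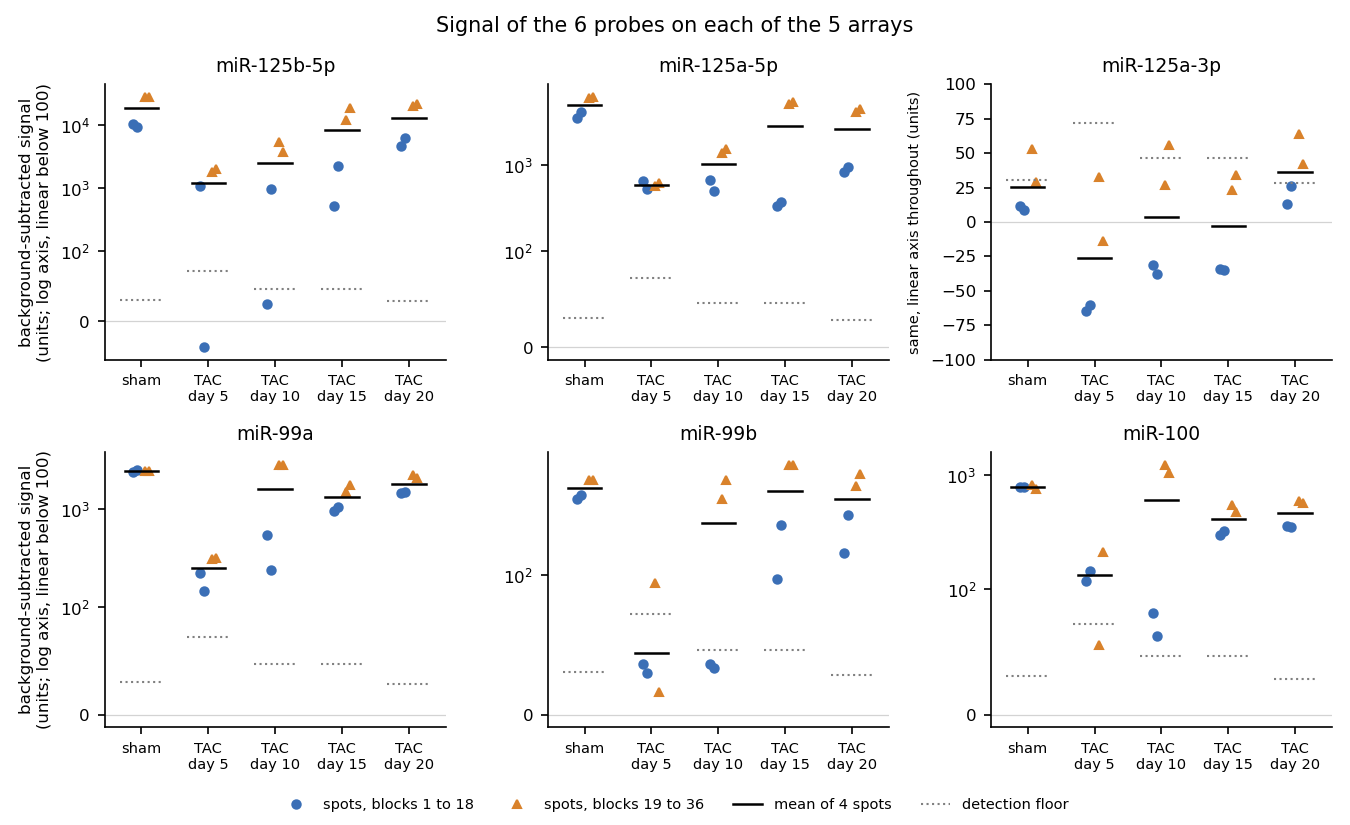
Background-subtracted signal in units of the 4 spots of each probe on the sham array and the 4 TAC arrays, on an axis that is logarithmic above 100 units and linear below it (linear throughout for miR-125a-3p). Circles are spots in blocks 1 to 18, triangles spots in blocks 19 to 36, bars the mean of 4 spots and dotted lines the detection floor. MiR-125b-5p, miR-125a-5p, miR-99a, miR-100 and miR-99b lie wholly below their sham spots on TAC day 5, where the mean of miR-99b is under the floor. The spots separate by block on the later arrays, and those of some probes, such as miR-125b-5p, do so on sham as well.

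The miR-99/100 guides also read lower on TAC day 5. By day 20 miR-99a had come nearer to sham, while the scaled day 20 spots of miR-100 and miR-99b overlapped those of day 5. MiR-99a, encoded with let-7c and miR-125b, had tight sham spots of 2411, 2518, 2464 and 2503 units. They read 223, 143, 308 and 313 units on TAC day 5 and 539, 237, 2900 and 2834 units on day 10. Day 5 lay wholly below sham, while on day 10 the low pair lay far below it and the high pair above it. The spots read 961, 1050, 1502 and 1795 units on day 15 and 1461, 1503, 2257 and 2100 units on day 20, and all of them lay below the lowest sham spot before scaling. The log2 ratio of miR-99a was -1.92 ± 0.17 on day 5 (3.78-fold lower), then -0.81 ± 0.68, -0.57 ± 0.24 and -0.19 ± 0.17 on the 3 later arrays. After scaling, the spots overlapped sham on days 10, 15 and 20. From TAC day 5 to day 20 the level differed by 1.73 ± 0.24, without overlap of spots.

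MiR-100, encoded with let-7a and miR-125b, read 794, 790, 816 and 753 units on sham. It read 116, 144, 55 and 210 units on TAC day 5 and 81, 62, 1247 and 1044 units on day 10. Day 5 was wholly below sham and day 10 split around it. The spots read 296, 323, 547 and 475 units on day 15 and 360, 352, 591 and 575 units on day 20, below every sham spot on both arrays. The log2 ratio of miR-100 was -1.07 ± 0.20 on day 5 (2.09-fold lower), then -0.62 ± 0.63, -0.56 ± 0.14 and -0.74 ± 0.16 on the 3 later arrays. The spots did not overlap sham on days 5, 15 and 20. On day 20 its ratio was the rank 6 lowest of 231, although it was under 2-fold, and the TAC day 20 level differed from TAC day 5 by 0.33 ± 0.25 with overlapping spots.

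MiR-99b, encoded with let-7e and miR-125a, had a ratio on 3 of the TAC arrays. Its spots read 398, 433, 564 and 569 units on sham. On TAC day 5 they read 36, 30, 94 and 16 units, with a mean of 44.0 units under the floor of 72.1, which bounded the level at least 1.92-fold lower than sham. On day 10 they read 36, 33, 403 and 563 units, on day 15 they read 97, 247, 745 and 752 units, and on day 20 they read 149, 299, 507 and 633 units. Each of these 3 arrays overlapped sham. The log2 ratio of miR-99b was -0.60 ± 0.52 on day 10, -0.08 ± 0.42 on day 15 and -0.45 ± 0.31 on day 20, none of them 2-fold.

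Read together, 4 of the 6 probes could be measured on TAC day 5 and 5 on each later array. On day 5 all 4 (miR-125a-5p, miR-125b-5p, miR-99a and miR-100) were at least 2-fold lower and 0 were higher, where 67.8% of 152 miRNAs were called in either direction and 26.3% of the 152 were called lower. On day 10, 2 of 5 were called, miR-125a-5p and miR-125b-5p, both lower, where 29.4% of 197 miRNAs were called and 15.7% were lower. On day 15 the same 2 of 5 were called lower, where 7.46% of 201 miRNAs were called and 2.49% were lower. On day 20, 0 of 5 were called, where 1.73% of 231 miRNAs were called and 0.433% were lower. Spots did not overlap in 4 of the calls on day 5, against 23.7% of all miRNAs called lower without overlap, in 2 on day 10 against 9.64%, and in 0 on day 15 against 0.498%. Under the 2-fold line, all measured members lay below sham on each array, where 38.2%, 50.8%, 50.7% and 58.4% of all miRNAs did from day 5 to day 20, except with spike-in scaling, with blocks 19 to 36 alone after day 5 and, on day 15, with the median of spots or the authors' processed values. The median log2 ratio of the measured members was -1.90, -0.81, -0.57 and -0.45, beside 0.56, -0.01, -0.01 and -0.08 over all miRNAs. The 4 comparisons share the sham array and are not independent of each other.

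These directions depended on the scaling. With spike-in scaling, which moved the median of all miRNAs up by 1.94, 2.04, 0.92 and 0.58 on the log2 scale, 3 of 4 members lay below sham on day 5, and 2, 2 and 3 of 5 on the later arrays. With blocks 19 to 36 alone, 2 of 5 lay below sham on day 10 and 4 of 5 on days 15 and 20. In these blocks the median ratio of the members was 0.11, -0.18 and -0.15 on those days. Over all miRNAs it was 0.56, 0.26 and 0.05. MiR-125b-5p and miR-125a-5p stayed below sham on all 4 arrays under each alternative tried, with ratios of miR-125b-5p on day 5 between -5.93 and -1.60 and on day 10 between -4.50 and -1.35. The lowest and highest ratios of miR-125a-5p were -2.87 and -0.20 on day 5 and -2.55 and -0.01 on day 10. Without spike-in scaling, its highest ratios were -1.52 on day 5 and -1.81 on day 10. MiR-100 turned from -1.07 to 1.08 on day 5 under spike-in scaling, and miR-99a on day 5 came to -0.04.

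**Figure D2:**
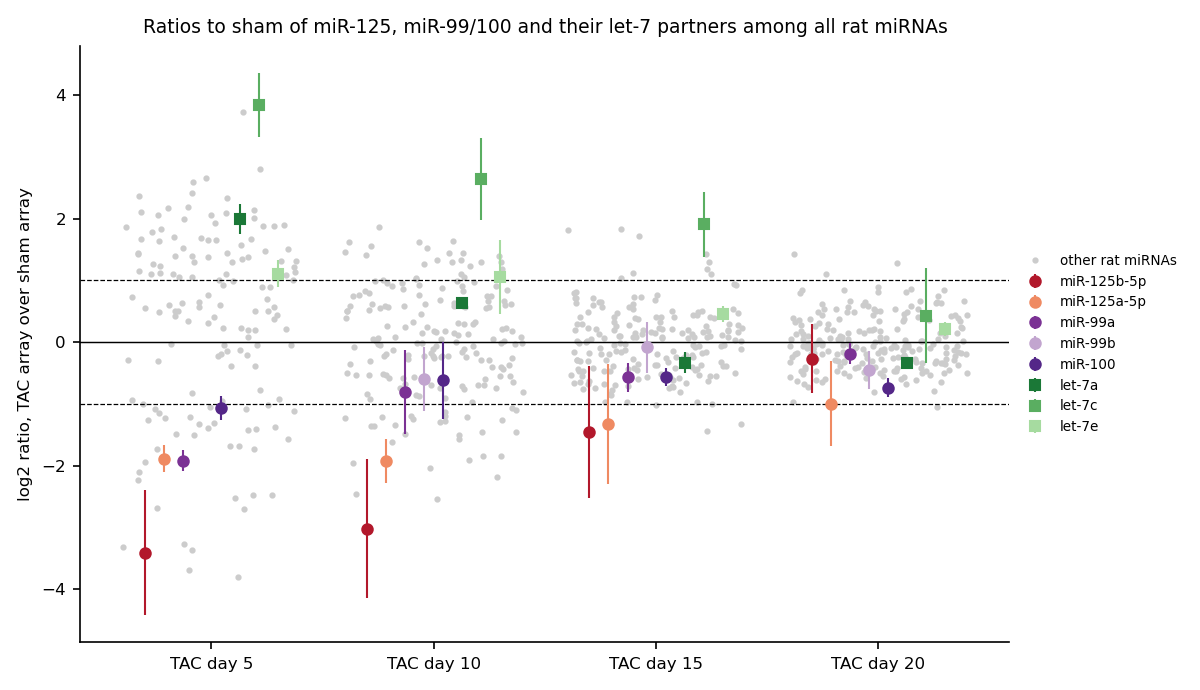
Log2 ratio of each TAC array to sham for the guides (circles) and their let-7 partners (squares), grouped by the day of the TAC array, with the other rat miRNAs above the floor on both arrays as grey points. Error bars are the SE over spots, and lines mark no difference and the 2-fold thresholds. The miR-125 guides, miR-99a and miR-100 lie below the lower threshold on day 5 and let-7a, let-7c and let-7e above the upper one. With spike-in scaling miR-99a comes to -0.04 and miR-100 to 1.08 on that day.

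The let-7 partners of the same loci, which share no seed with them, lay above sham on TAC days 5 and 10 under each processing tried. On day 5 all 3 were at least 2-fold higher after scaling, where 41.4% of all miRNAs were, on day 10 2 of 3 were, against 13.7%, on day 15 1 of 3, against 4.98%, and on day 20 0 of 3, against 1.30%. Let-7c read 1248, 2857, 370 and 825 units on sham. It read 6464, 7153, 7786 and 7353 units on TAC day 5, 4661, 3948, 12127 and 9089 units on day 10 and 3563, 4493, 3248 and 4242 units on day 15. No spot of these 3 arrays overlapped the sham spots. On day 20 it read 434, 2672, 1978 and 1468 units, within the sham range. The log2 ratio of let-7c was 3.84 ± 0.52, 2.64 ± 0.66, 1.91 ± 0.52 and 0.43 ± 0.77 from day 5 to day 20, the highest of all measured miRNAs on the 3 earlier arrays. Its sham spots differed by block, blocks 19 to 36 minus blocks 1 to 18, by -1.54 on the log2 scale, the lowest such difference of 143 miRNAs. From blocks 1 to 18 the let-7c ratio was 2.95, 1.17, 1.18 and -0.69 from day 5 to day 20. From blocks 19 to 36 it was 4.74, 4.12, 2.64 and 1.55.

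Let-7a had a mean of 2830.5 units on sham, then 5379, 3943, 1741 and 1801 units on the TAC arrays, and its log2 ratio was 2.00 ± 0.25, 0.63 ± 0.09, -0.33 ± 0.17 and -0.34 ± 0.07 from day 5 to day 20. Let-7e shows how scaling enters a ratio. Its mean was 4719 units on sham and 4830 units on TAC day 5, nearly the same before scaling, while its log2 ratio on day 5 was 1.11 ± 0.22 after quantile scaling. Over the alternatives it lay between 0.18 and 2.42 on that day. On the later arrays the let-7e ratio was 1.05 ± 0.59, 0.45 ± 0.13 and 0.22 ± 0.12. On day 10 the let-7e spots overlapped sham, and the ratio was 0.19 from blocks 1 to 18 and 1.92 from blocks 19 to 36. That 2-fold call thus rested on blocks 19 to 36. On day 5 the 2 sets gave 0.91 and 1.30.

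Differences between miRNAs of a locus, taken between ratios of the same arrays, cancel any scaling by a constant per array. The let-7c ratio exceeded that of miR-125b-5p by 7.25 ± 1.14, 5.66 ± 1.31, 3.36 ± 1.19 and 0.69 ± 0.95 on the log2 scale from day 5 to day 20. It exceeded that of miR-99a by 5.76 ± 0.55, 3.45 ± 0.95, 2.47 ± 0.57 and 0.61 ± 0.79. On chromosome 8, let-7a exceeded miR-125b-5p by 5.4 ± 1.04 on day 5 and 3.65 ± 1.13 on day 10, and the difference was within about its SE on days 15 (1.12 ± 1.08) and 20 (-0.08 ± 0.56). Let-7a exceeded miR-100 by 3.06 ± 0.32 on day 5 and 1.25 ± 0.64 on day 10, then by 0.23 ± 0.22 and 0.40 ± 0.17. On chromosome 1, where all 3 hairpins lie within 696 bases, let-7e exceeded miR-125a-5p by 3.0 ± 0.31, 2.98 ± 0.69, 1.78 ± 0.98 and 1.21 ± 0.70. Let-7e exceeded miR-99b by 1.65 ± 0.79 on day 10, 0.54 ± 0.44 on day 15 and 0.67 ± 0.33 on day 20.

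Both guides of a locus, miR-125 and miR-99/100, were also set against each other in the same way. MiR-125b-5p lay below miR-99a in ratio by -1.49 ± 1.03 on day 5 and -2.21 ± 1.32 on day 10, and below miR-100 by -2.34 ± 1.03 and -2.40 ± 1.29. By day 20 these differences were -0.08 ± 0.58 and 0.47 ± 0.58. MiR-125a-5p lay below miR-99b by -1.33 ± 0.63 on day 10, -1.24 ± 1.05 on day 15 and -0.54 ± 0.76 on day 20. Within the miR-99/100 family, miR-100 and miR-99a differed by 0.85 ± 0.26, 0.19 ± 0.93, 0.01 ± 0.28 and -0.55 ± 0.23 over the same days from day 5 on.

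**Figure D3:**
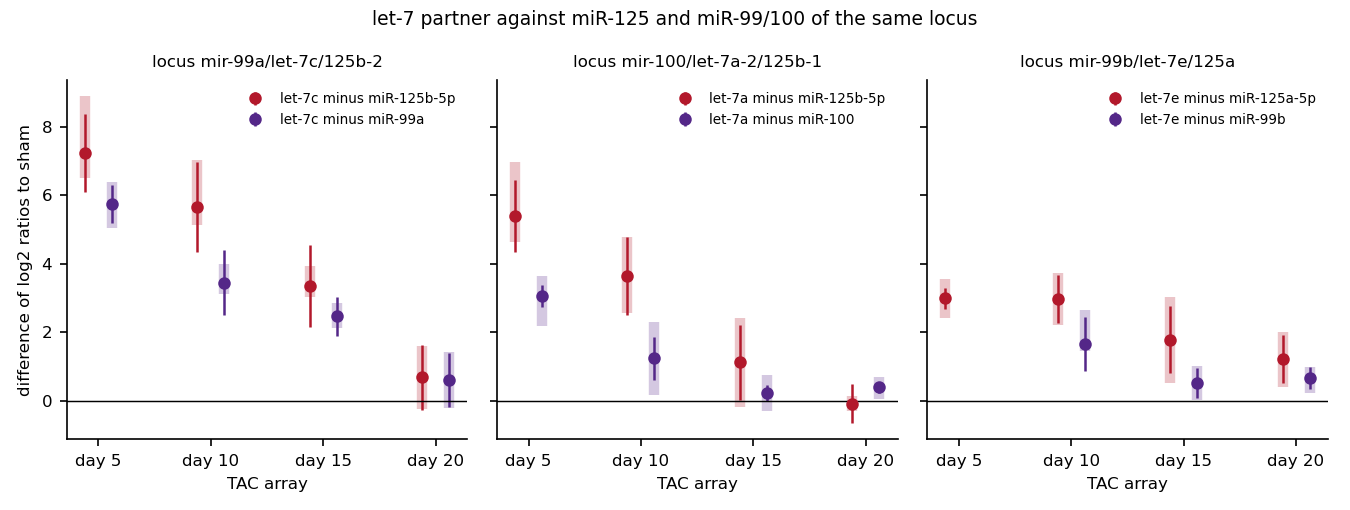
Difference between the log2 ratio to sham of the let-7 partner and that of the miR-125 guide (red) or the miR-99/100 guide (purple) of the same locus, against the day of the TAC array. Thin bars are the SE over spots and pale bars the range over the processing alternatives. On days 5 and 10 every difference lies above 0, and the largest is 7.25 for let-7c minus miR-125b-5p on day 5.

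Rno-miR-351, the only other miRNA with the miR-125 seed, was added after the values were seen and was printed in the same blocks as miR-125a-5p. Its mean was 622 units on sham and 1324, 461, 806 and 825 units on the TAC arrays. Its log2 ratio was 1.37 ± 0.10 on day 5, opposite in sign to both miR-125 guides, and -0.25 ± 0.42, 0.44 ± 0.16 and 0.34 ± 0.14 on the later arrays. The let-7 guides made outside these loci (let-7b, let-7d, let-7f, let-7i and miR-98) had 2 of 5 called higher on day 5, against 41.4% of all miRNAs, and 2 of 5 called lower, against 26.3%. Their median log2 ratio was -0.31, -0.22, -0.73 and -0.55 from day 5 to day 20.

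Markers of other cell types also differed on the same arrays. MiR-126 of endothelium had a log2 ratio of -3.80 ± 0.21 on day 5, without overlap of spots, and between -0.18 and 0.06 on days 15 and 20. Its day 10 ratio of -1.06 ± 0.87 is limited by the scanner ceiling, which 2 of 4 spots reached, and the spots overlapped sham. The erythroid pair miR-144 and miR-451 summed to 19712.5 units on sham and to 1143.5, 5942, 20050 and 18683 units on the TAC arrays. The smooth muscle pair miR-143 and miR-145 summed to 37736 units on sham, 4252 on day 5 and between 28242 and 32158 on the later arrays. The low sum lay in miR-143, with a log2 ratio of -3.69 ± 1.04 on day 5, while miR-145 had -0.13 ± 0.16. The 4 fibroblast and mesenchymal miRNAs (miR-21, miR-199a-3p, miR-199a-5p and miR-214) summed to between 5485 and 8553 units on the 5 arrays, with day 5 ratios of opposite sign: 1.70 ± 0.11 for miR-21, -1.02 ± 0.24 for miR-199a-3p, -1.33 ± 0.08 for miR-199a-5p and -0.02 ± 0.09 for miR-214. The 4 leukocyte miRNAs (miR-142-3p, miR-142-5p, miR-223 and miR-150) summed to between 4950 and 15276 units, and of them miR-150 was called lower on days 5 and 10 and higher on day 15. Its spots overlapped sham on days 5 and 15, and miR-223 was below the floor on TAC day 5. The part of these in the ratios of the members was not tested.

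In order of level after quantile scaling, sham was highest for each of the 5 guides. MiR-125b-5p followed the order sham, TAC day 20, day 15, day 10 and day 5, and every pair of neighbours in that order overlapped in spots. The same held for neighbours of miR-125a-5p, whose order ended with day 5 and day 10, a difference of 0.04, and for those of miR-99a. For miR-100 only sham and its nearest TAC array, day 15, were apart without overlap.

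Among the 142 other miRNAs above the floor on all 5 arrays, those whose 4 ratios lay nearest were listed for each member by the largest difference on any array. For miR-125b-5p they were miR-130a (0.65), miR-499 (1.08), a miRNA of a myosin gene, and miR-451 (1.34). The largest differences for miR-125a-5p were 0.59 to miR-24-2*, 0.67 to let-7b and 0.80 to miR-146b. For miR-99a they were miR-30c (0.36), miR-146b (0.41) and miR-22* (0.41), and for miR-100 miR-208* (0.20), miR-199a-5p (0.26) and miR-101b (0.29). No member was among the nearest 3 of another. The arrays share the sham reference, so this likeness is a description of 5 arrays.

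The position of the spots moved with several of these values. Each probe has 2 spots in blocks 1 to 18 and 2 in blocks 19 to 36, and the median miRNA read higher in blocks 19 to 36 by 0.14 on sham and by 0.16, 0.86, 0.54 and 0.29 on the TAC arrays (log2 scale, before scaling). MiR-125a-5p differed between its blocks by 3.27 on day 15 and 2.27 on day 20, the highest of 143 miRNAs on both arrays, and by -0.01 on day 5. From blocks 1 to 18 its log2 ratio was -1.52, -2.04, -2.60 and -1.77 from day 5 to day 20, and from blocks 19 to 36 it was -2.26, -1.81, -0.06 and -0.22. MiR-125b-5p differed between its blocks by 1.14 on sham already, rank 2 from the highest of 143, and by 2.31, 3.31, 3.19 and 1.54 on the TAC arrays. For miR-125b-5p the ratio was -3.99, -4.10, -2.48 and -0.47 from blocks 1 to 18 and -2.82, -1.94, -0.43 and -0.07 from blocks 19 to 36. The 2-fold calls of day 15 thus rested on blocks 1 to 18, and the calls of both miR-125 guides on days 5 and 10 were made in either set of blocks. MiR-99a had ratios of -2.19 and -1.65 on day 5 in the 2 sets, and miR-100 had -0.99 and -1.14. On day 10 the sets opposed each other, at -1.96 and 0.33 for miR-99a, -1.31 and 0.11 for miR-99b, and -1.70 and 0.47 for miR-100. The median over all miRNAs was -0.38 and 0.56 in the same sets on that day, so these ratios lay below it in both.

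**Figure D4:**
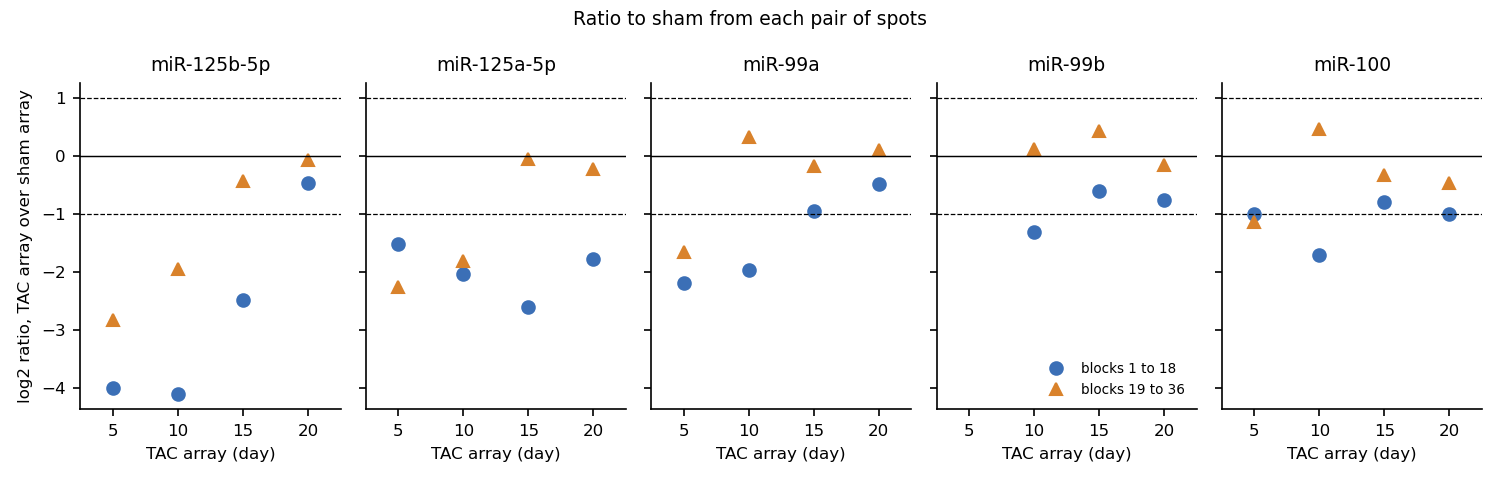
Log2 ratio to sham of each guide from its spots in blocks 1 to 18 (circles) and in blocks 19 to 36 (triangles), against the day of the TAC array, with lines at no difference and at 2-fold. MiR-99b on day 5 was below the floor and is not drawn. Both sets are below -1 for the miR-125 guides on days 5 and 10, and they lie at -2.60 and -0.06 on day 15 for miR-125a-5p.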

How the data were processed

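The members, lists and alternatives were chosen with earlier results of these data known. For 12312 spots the authors deposited a foreground intensity and a background-subtracted intensity, per the file headers, with no scaling between arrays. The authors' processed table holds, as its values show, a linear ratio: the median of a probe's subtracted spots over an array constant of unstated rule, with no centring per gene. For the scanner, the sources used here name none. The header of the sham column carries another day than its label of 5 days, so the time of sham rests on the label.

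Foreground and background (foreground minus subtracted value) went through normexp (offset 50) and quantile scaling over spots of the 678 rat probes, and each probe took the mean log2 value of its 4 spots (limma 3.58.1, R 4.3.3). The offset shrinks ratios of dim probes. No member spot was at the ceiling of 65535 units. The code was tested on simulated data. A miRNA over the floor on only 1 array of a comparison was given as a bound. Named miRNAs were the members, their let-7 partners, opposite strands of the loci, the other let-7 guides, the 3 nearest profiles of each member, lists of heart muscle, other organ and other cell type markers, and miR-351, added after its values were seen. Motifs, promoters and proteins were not used. With 1 array per group there was no test, and the number of arrays limits the precision. Results were recomputed with 10 other processing choices and with 1 more chosen after seeing the data.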

Additional observations from a re-analysis of the deposited data

How the results depend on the processing

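No paired analysis was possible because every group is a lone array. The count of members at 2-fold or more was 4, 2, 2 and 0 from day 5 to day 20. It was 3 on day 5 with the median of spots and in blocks 1 to 18, where miR-100 came to -0.99, and 3 on day 10 with median scaling, quantile scaling over all non-control probes and the authors' processed values. Of all miRNAs, these settings called 65.8% and 63.2% on day 5 and 31.5%, 32% and 41.6% on day 10. With no floor it was 5 on day 5, where 22.4% of 678 miRNAs were called. With spike-in scaling it was 2 on day 5 (1 lower, 1 higher), 4 on day 10 (1 lower, 3 higher) and 0 on day 15. That scaling called 79.6%, 84.3% and 43.3% of all miRNAs on these days. Plain background subtraction and blocks 1 to 18 alone each gave 5 on day 10, beside 54.3% and 46.2% of all miRNAs. Blocks 19 to 36 alone gave 0 on day 15, beside 8.96% of all miRNAs. The authors' processed values gave 1 on day 15, beside 16.9% of all miRNAs. On day 20 the count was 1 with median scaling, quantile scaling over all non-control probes, plain subtraction, no background correction, the median of spots and the authors' processed values, and 2 in blocks 1 to 18. The settings that gave 1 called between 2.6% and 18.2% of all miRNAs, and blocks 1 to 18 called 7.36%. The ratio of miR-100 on day 5 reversed to 1.08 with spike-in scaling, and let-7a minus miR-125b-5p on day 15 reversed to -0.18 in blocks 19 to 36. The causes were not tested. Of 310 alternative ratios, 252 kept within 1 spot SD (combined over the arrays compared) of the value reported, and of 340 differences within loci, 333 did. This limit is wide where spots disagree. The log2 spot SD of miR-125b-5p was 1.92, 2.16 and 2.04 on TAC days 5, 10 and 15. Its day 5 ratio of -1.60 with spike-in scaling counted as kept, beside -3.41. Median and spike-in scaling, as constants per array, also give the same differences as each other. Differences between miRNAs of different loci were not recomputed. Quantile scaling within each block set, chosen after seeing the data, kept all 4 counts. Over all miRNAs the count of calls was 15 on day 15 and 4 on day 20, against 57 and 42 with plain subtraction, 87 and 49 with spike-in scaling, and 34 and 36 with the authors' processed values. On day 15 it was 53 in blocks 1 to 18. On day 10 it was 58, against 107, 166 and 91 with plain subtraction, spike-in scaling and blocks 1 to 18. Other scalings moved the median of all miRNAs by up to -0.69 (quantile over all probes, day 5) or -0.71 (plain subtraction, day 10). Signal near the floor limits miR-125a-3p on all arrays and miR-99b on day 5. The means of miR-125b-5p on days 5 and 10, miR-100 on day 5 and miR-99b on day 10 were above the floor. Some of their spots were below it.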

Other observations

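The opposite strands of the same hairpins, the star forms, were mostly below the floor. MiR-125b*, miR-125b-3p, miR-99a*, miR-100* and let-7e* were below it on all 5 arrays. MiR-99b*, the partner strand of miR-99b, read 106, 148, 134 and 85 units on sham, 195, 281, 516 and 454 units on TAC day 5 and 457, 431, 457 and 474 units on day 10. No spot of those TAC arrays overlapped sham. Its log2 ratio was 1.51 ± 0.24 on day 5 and 1.33 ± 0.07 on day 10, while its guide was below the floor on day 5 and at -0.60 ± 0.52 on day 10. On days 15 and 20 the ratio of miR-99b* was 0.09 ± 0.10 and -0.10 ± 0.11.

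Let-7a-2*, from the hairpin between miR-100 and miR-125b on chromosome 8, had a log2 ratio of 1.44 ± 0.18, 0.57 ± 0.12, 0.63 ± 0.26 and 0.44 ± 0.12 from day 5 to day 20. Let-7c-1*, from the hairpin beside miR-99a, read 81, 93, 115 and 116 units on sham and 609, 544, 973 and 974 units on TAC day 15, a log2 ratio of 1.84 ± 0.19 that was the rank 2 highest of 201 miRNAs. It was below the floor on TAC day 5, where the let-7c guide was at its highest ratio. The probe shared by let-7a-1* and let-7c-2* was above the floor only on sham and TAC day 20, with a ratio of -0.42 ± 0.08.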
